A study of Mus musculus with 12 samples.

Results

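The liver of a single adult NMR-1 mouse was profiled on MG_U74Av2 arrays, Affymetrix oligonucleotide arrays of mouse transcripts, by a standard and by a small-sample procedure. The standard procedure, here 1X, labelled 5 µg of total RNA with 1 linear amplification and had 1 liver array. The small-sample procedure, here 3X, took 1 ng through 3 linear amplifications and had 3 liver arrays, which the labels describe as technical replicates. Its first 2 rounds used the RiboAmp HS kit (Arcturus), so that input, kit and number of rounds changed together and cannot be told apart. These 4 liver arrays belong to a series of 12, in which cortex and cerebellum of the same animal have 4 arrays each with the same layout. All 12422 probe sets other than the manufacturer's 66 control sets were compared between the 3X and 1X liver arrays. They were drawn from a table of 12488 probe sets.

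Linear amplification copies RNA by in vitro transcription from a T7 promoter attached to the oligo-dT primer, and each further round primes again on RNA made in the round before. RNA copies tend to shorten over rounds, because random primers start inside the molecule, so the end of the transcript away from the poly(A) tail is the first to be lost. A probe set measures only the stretch of transcript its probes cover. Hepatocytes, the main cells of the liver, devote much of their messenger RNA to secreted plasma proteins and to enzymes of nitrogen, lipid and drug metabolism.

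Values are log2 signals, and a difference is the mean of the 3X replicates minus the 1X array on that scale, with its standard error (SE). A difference of 1 is 2-fold. A probe set was called at a limma adjusted p under 0.05 (Benjamini-Hochberg over all 12422). Because 1X had 1 array, the spread came from the 3X replicates alone, and the lone 1X array was assumed to vary like them. A p-value here measures technical spread and says nothing about other mice. The summary method gives no detection call, so a dim signal cannot be told from background and a difference against one is no measured ratio of RNA. For that reason, keeping and losing signal were counted only among the 3106 probe sets above the 75th percentile of the 1X array (4.99), here called bright. Such a probe set was counted as kept when the whole 95% interval of its difference lay between -1 and 1, as lost when it lay below -1, and as gained when it lay above 1. No exact permutation test over the 4 arrays can go below p = 0.25.

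The liver label fitted the markers at both amplifications. Albumin (Alb) read 12.57 at 1X and 11.05 on average at 3X in liver, against 3.77 and 3.25 on the 1X arrays of cortex and cerebellum. Apoa1, Fgb, Cps1 and Cyp2e1 were likewise brighter in liver than in both brain regions under either procedure. Transthyretin (Ttr), which the choroid plexus also makes, read 13.03 in liver and 11.57 in cortex at 1X. No pair of liver arrays held identical values. Replicate 3 stood apart from the other 3X arrays: across probe sets, its Pearson correlation with the 1X array was 0.928, against 0.894 for replicate 1 and 0.893 for replicate 2. It was the 3X array nearest to 1X for 50.1% of all probe sets and for 61.3% of those called lower by at least 2-fold. Counts are therefore given with it and without it. The 3X arrays correlated with one another at 0.977 to 0.9895, and the median SD of a probe set over them was 0.13.

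Among liver probe sets that changed at least 2-fold, more were lower than higher at 3X, and the largest changes were losses. Hepcidin (Hamp), the iron-regulating hormone of hepatocytes, fell most, and its 3X replicates read 2.54 to 2.88 against 8.92 on the 1X array. The acyl-CoA-binding protein Dbi and the ATP synthase subunit Atp5l fell by over 5 on the log2 scale, whereas the largest rise, of Snap25, was 3.18. In all, 1855 of 12422 probe sets were called (14.9%), 1219 lower at 3X (9.81%) and 636 higher (5.12%). Of these, 1157 changed at least 2-fold (9.31%), 904 of them lower (7.28%) and 253 higher (2.04%). The 1X value lay outside the range of the 3X replicates for 10088 (81.2%). Without replicate 3, 1960 were called lower and 1995 higher, so the excess of lower calls was not seen, whereas 1166 were lower and 388 higher by at least 2-fold. Leaving out replicate 1 gave 572 lower and 71 higher, and leaving out replicate 2 gave 548 and 94, all of at least 2-fold. The median difference over all probe sets was 0.15, and it was 0.11 after quantile normalization and 0.17 after median centring.

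**Figure D1:**
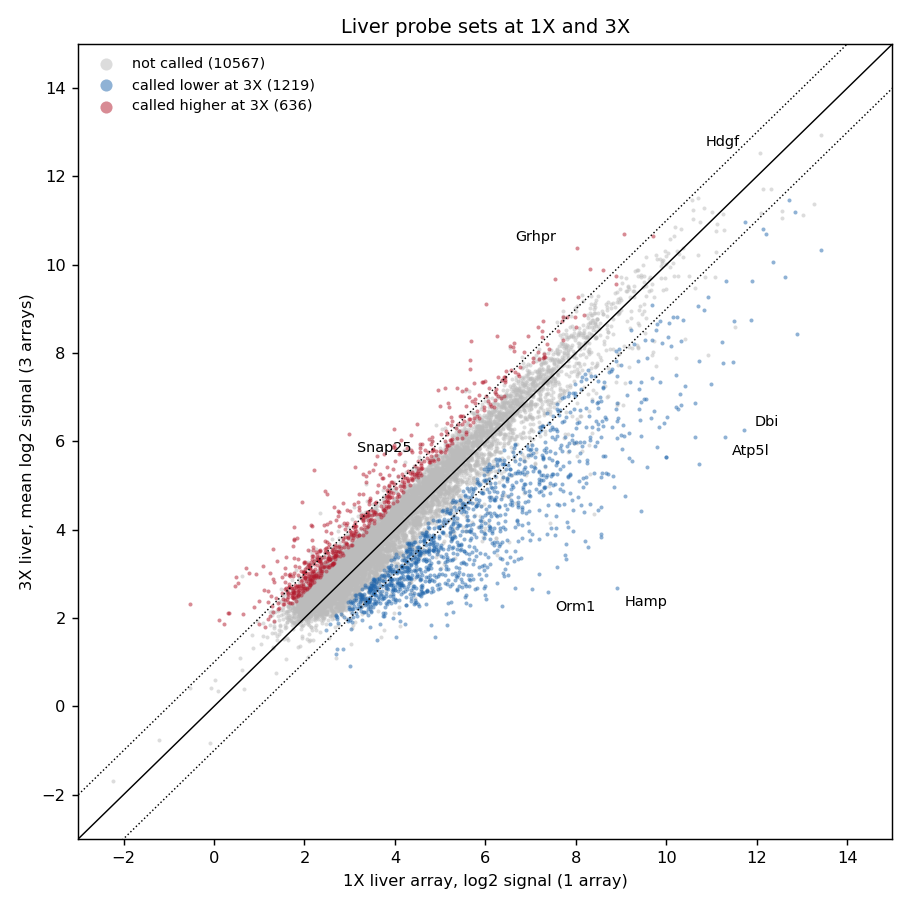
Each point is 1 of 12422 probe sets, with its log2 signal on the 1X liver array on the x axis and the mean log2 signal of the 3 3X liver arrays on the y axis; the solid line is equality and the dotted lines are 2-fold. The 1219 called lower (blue) reach farther from the line than the 636 called higher (red), with Hamp, Orm1, Dbi and Atp5l at the lower right.

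Among the probe sets bright at 1X, 1660 of 3106 probe sets kept their signal (53.4%), 435 lost it (14.0%), 14 gained (0.451%) and 997 were undecided (32.1%). The called ones were 702 lower (22.6%) and 125 higher (4.02%). These shares depend on which array defines brightness. With the 75th percentile taken of the 3X mean, 1881 kept, 173 lost and 34 gained, and with it taken from the mean of the 4 liver arrays, 1845 kept, 234 lost and 27 gained. The order of the brightest transcripts changed: of the 50 brightest probe sets at 1X, 26 were among the 50 brightest at 3X (52.0%), and of the brightest 500, 334 (66.8%).

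The 12 genes with the largest falls, among called probe sets that were bright on one side, were Hamp, Dbi, Cyp2d10, Atp5l, Orm1, Scp2, Apoa5, Plg, H2-D1, H2-K1, C4bp and Hsd11b1. The rule for naming required the 1X value to lie outside the 3X range. Hamp read 8.92 at 1X and 2.60, 2.88 and 2.54 in replicates 1, 2 and 3, a difference of -6.24 ± 0.19 (SE; limma adjusted p = 0.00127). Dbi, which carries acyl-CoA esters inside cells, read 11.72 at 1X and 6.28, 5.95 and 6.54 at 3X (-5.46 ± 0.25). Atp5l, of the membrane part of mitochondrial ATP synthase, read 11.30 at 1X and 6.10, 6.07 and 6.14 at 3X (-5.20 ± 0.13). The SD of the Atp5l replicates was 0.035, far smaller than the loss.

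Several of these genes encode plasma proteins. Orm1, an acute-phase carrier of drugs and lipids, read 7.39 at 1X and 2.63, 2.46 and 2.65 at 3X (-4.81 ± 0.15). C4bp, which restrains the complement cascade, read 7.78 at 1X and 2.71, 2.86 and 4.44 at 3X (-4.44 ± 0.69). Its replicate 3 stood well above the others, and its call was lost when replicate 1 or replicate 2 was left out (adjusted p up to 0.0662). The other 11 stayed called without either, and all 12 without replicate 3.

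Others belong to lipid, steroid and drug metabolism or to antigen presentation. Hsd11b1, which regenerates active glucocorticoid, read 7.59 at 1X and 3.09, 3.45 and 2.92 at 3X (-4.44 ± 0.24). The probe set of Cyp2d10, a drug-metabolizing P450, read 10.73 at 1X and 5.17, 5.26 and 6.002 at 3X (-5.25 ± 0.35), and its suffix marks probes that related transcripts of the Cyp2d family can share. H2-K1 and H2-D1 encode the classical class I histocompatibility proteins, which are near-identical over long stretches. H2-K1 read 12.88 at 1X and 8.10, 8.18 and 9.02 at 3X (-4.45 ± 0.38). H2-D1 read 8.21 at 1X and 3.49, 3.69 and 4.03 at 3X (-4.48 ± 0.23). Only 4 of the 12 were still above the brightness limit of the 3X arrays (4.90) after the fall. For these a fold can be given: 44.1-fold for Dbi, 38.1-fold for Cyp2d10, 36.8-fold for Atp5l and 21.8-fold for H2-K1.

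The remaining 3 genes, Scp2, Apoa5 and Plg, each had another probe set that behaved differently. For plasminogen (Plg), from which the clot-dissolving enzyme plasmin is cut, probe set 101985_at read 8.27 at 1X and 3.35, 3.28 and 4.21 at 3X (-4.65 ± 0.39). Probe set 161626_f_at read 11.26 at 1X and 10.95, 10.57 and 11.96 at 3X (-0.10 ± 0.53), with the 1X value inside the 3X range. For Scp2, a carrier of sterols and fatty acids, 95787_s_at fell by 4.71 ± 0.44 on the log2 scale while 93278_at differed by -0.10 ± 0.36. For Apoa5, which lowers plasma triglycerides, 95727_at fell by 4.66 ± 0.35, 95729_at differed by -1.28 ± 0.20 and 95728_g_at by -0.91 ± 0.50. Cyp2d10 had a second probe set too, 98612_at, at 0.68 ± 0.24 and not called. Of the 12 genes, 7 had other probe sets, 10 in number, of which 4 were called lower and 6 were not called.

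**Figure D2:**
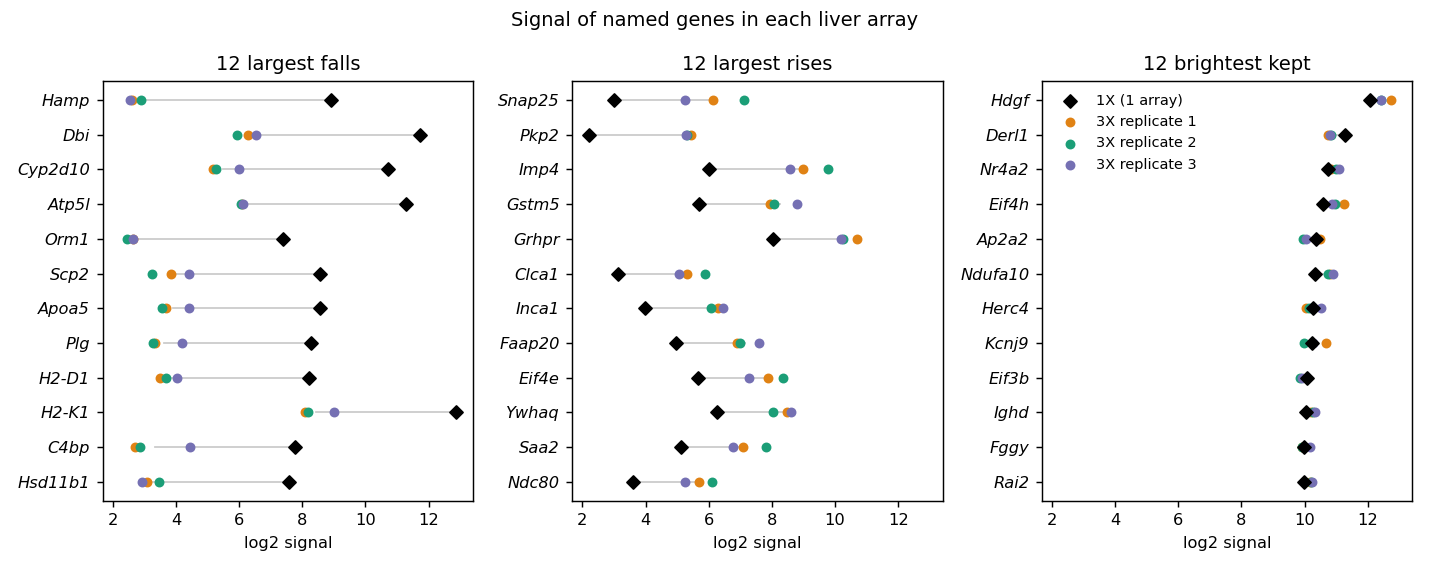
The log2 signal (x axis) of the 12 genes with the largest falls, the 12 with the largest rises and the 12 brightest with signal kept is shown in each liver array, with a diamond for the 1X array and circles for the 3X replicates. In the first panel every 3X replicate lies left of the 1X array, in the second every one lies right of it, and in the third the 1X array and the replicates lie close together.

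The 12 largest rises were a mixed group: Snap25, Pkp2, Imp4, Gstm5, Grhpr, Clca1, Inca1, Faap20, Eif4e, Ywhaq, Saa2 and Ndc80. Snap25, a membrane-fusion protein of nerve terminals, read 2.99 at 1X and 6.15, 7.11 and 5.26 at 3X (3.18 ± 0.67, limma adjusted p = 0.0368). All its 3X replicates were above 1X, with an SD of 0.93. Pkp2, a desmosome protein, read 2.22 at 1X and 5.45, 5.32 and 5.29 at 3X (3.14 ± 0.15). Imp4, which acts in ribosomal RNA processing, read 6.01 at 1X and 8.98, 9.77 and 8.57 at 3X (3.09 ± 0.45). Grhpr, the glyoxylate reductase of hepatocytes, read 8.03 at 1X and 10.69, 10.25 and 10.20 at 3X (2.35 ± 0.23).

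The others rose by 2.07 to 2.57. They were the glutathione transferase Gstm5, the secreted protein Clca1, the cyclin-dependent kinase inhibitor Inca1, the Fanconi anemia protein Faap20, the cap-binding factor Eif4e, the 14-3-3 protein Ywhaq, the acute-phase apolipoprotein Saa2 and the kinetochore protein Ndc80. Adjusted p-values of the 12 were 0.0368 or lower in the limma fit, and the calls were less stable than those of the falls. Snap25 and Eif4e were no longer called without replicate 1 or without replicate 2, and Imp4, Clca1, Saa2 and Ndc80 were no longer called without replicate 1. All 12 were called without replicate 3. In 7 of the 12 the probe set carried a suffix, and none of the 13 other probe sets of these genes was called by limma (1 lower and 4 higher at an unadjusted p under 0.05). For example, the other probe set of Saa2 differed by -1.05 ± 0.26 and that of Eif4e by 0.25 ± 0.13.

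The 12 brightest genes with signal kept were Hdgf, Derl1, Nr4a2, Eif4h, Ap2a2, Ndufa10, Herc4, Kcnj9, Eif3b, Ighd, Fggy and Rai2. Hdgf, a chromatin-associated growth factor, read 12.07 at 1X and 12.74, 12.42 and 12.42 at 3X (0.45 ± 0.19, 95% interval -0.02 to 0.92). Derl1, which exports misfolded proteins from the endoplasmic reticulum, read 11.27 at 1X and 10.75, 10.85 and 10.80 at 3X (-0.47 ± 0.14, interval -0.82 to -0.12). The complex I subunit Ndufa10 read 10.33 at 1X and 10.82, 10.74 and 10.91 at 3X (0.49 ± 0.15, interval 0.12 to 0.85). The translation factors Eif4h and Eif3b differed by 0.43 ± 0.20 and -0.15 ± 0.15. Some were genes known mainly from other cells: the nuclear receptor Nr4a2 (0.22 ± 0.16), the neuronal potassium channel Kcnj9 (0.08 ± 0.28) and the B cell immunoglobulin heavy chain Ighd (0.22 ± 0.14). Without a detection call, a bright reading that is kept need not come from liver transcript, and this was not tested.

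Genes were then grouped into lists by function, with the probe set of highest mean signal standing for a gene. Over all 8251 genes, 901 fell (10.9%), 379 rose (4.59%), 667 fell by at least 2-fold (8.08%), and the median difference was 0.14. Of the 2530 among them that were bright at 1X, 554 fell (21.9%), 1382 kept their signal (54.6%), 323 lost it (12.8%) and 10 gained (0.395%). Of 268 genes of liver function, secreted, metabolic or regulatory, 112 fell, 4 rose and the median difference was -0.79. The metabolic ones included antioxidant genes and metallothioneins, which are described below beside the housekeeping lists. The 188 bright members of the 268 split into 24 kept, 61 lost, 1 gained and 102 undecided. Of the 1219 probe sets called lower in all, 702 were bright at 1X and 517 were not. Leaving out replicate 1, 2 or 3 gave 60, 56 and 170 falls among the 268 genes. Over all 8251 genes the same fits gave 420 falls (5.09%), 405 (4.91%) and 1434 (17.4%), with 41 rises (0.497%), 51 (0.618%) and 1250 (15.1%).

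Plasma carriers and acute-phase proteins had a median difference of -1.59, and 14 of 30 fell while 1 rose. Fetuin-A (Ahsg), a mineral-binding carrier, read 13.43 at 1X and 13.18, 12.61 and 13.01 at 3X (-0.50 ± 0.25, not called, interval -1.13 to 0.13). Ttr, the carrier of thyroid hormone, read 13.03 at 1X and 10.59, 10.76 and 12.02 at 3X (-1.91 ± 0.57, not called). The protease inhibitor Pzp read 13.26 at 1X and 11.83, 10.55 and 11.76 at 3X (-1.88 ± 0.53, not called). Albumin read 12.57 at 1X and 11.04, 10.39 and 11.72 at 3X (-1.51 ± 0.49, not called). In all of these every 3X replicate lay below 1X. The antitrypsin Serpina1c, one of a near-identical family, fell by 1.26 ± 0.22 on the log2 scale, and Saa2 was the list's rise. Without replicate 1, 2 or 3 the falls in the list numbered 6, 6 and 22. Ttr and Pzp were called without replicate 3, Pzp also without replicate 2, and without replicate 1 or 2 Serpina1c was not.

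Coagulation factors fell in 9 of 20 cases and rose in none by limma (1 at an unadjusted p under 0.05), with a median difference of -1.28. Prothrombin (F2) read 7.94 at 1X and 3.75, 3.80 and 4.39 at 3X (-3.96 ± 0.29), the largest fall of the list. Factor V (F5) read 10.40 at 1X and 7.19, 7.04 and 7.53 at 3X (-3.15 ± 0.22). Fibrinogen gamma (Fgg) read 9.99 at 1X and 9.32, 9.18 and 9.87 at 3X (-0.54 ± 0.29, not called). Its protein is a chain of the fibrin precursor. Factor XII (F12) differed by -1.49 ± 0.49, not called. The falls numbered 7, 6 and 15 without replicate 1, 2 or 3, and F12 and Fgg were called without replicate 3.

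Complement genes fell in 6 of 17 cases, with a median difference of -0.69 and 0 rises by limma, also at an unadjusted p under 0.05. The mannose-binding lectin Mbl2, which starts the lectin pathway, read 10.27 at 1X and 6.31, 6.20 and 7.70 at 3X (-3.53 ± 0.61). C4bp, already described, fell most. The C1 inhibitor Serping1 differed by -0.81 ± 0.22 and the C3b-cleaving factor I (Cfi) by -2.09 ± 0.91, neither called. Cfi read 8.91 at 1X and 5.73, 6.51 and 8.21 at 3X, a spread as wide as its difference. The falls numbered 1, 0 and 10 without replicate 1, 2 or 3, and 8 were lower at an unadjusted limma p under 0.05. Neither C4bp nor Mbl2 was called without replicate 1 or 2, and Serping1 and Cfi were called without replicate 3.

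Apolipoproteins and lipid carriers fell in 12 of 19 cases, 0 rose by limma, also at an unadjusted p under 0.05, and the median difference was -1.25. Apoe, a ligand of lipoprotein receptors, read 11.90 at 1X and 9.79, 9.35 and 9.78 at 3X (-2.26 ± 0.22). Apoa1, the main protein of high-density lipoprotein, read 12.84 at 1X and 11.34, 10.78 and 11.47 at 3X (-1.64 ± 0.29). The cholesterol-esterifying enzyme Lcat read 7.54 at 1X and 4.04, 3.88 and 3.69 at 3X (-3.67 ± 0.18), the largest fall of the list. Apob, whose transcript is among the longest of the liver, read 10.17 at 1X and 9.58, 9.06 and 10.57 at 3X (-0.43 ± 0.56), with the 1X value inside the 3X range. The fatty acid-binding protein Fabp1 differed by -0.93 ± 0.51, not called. The falls numbered 6, 7 and 16 without replicate 1, 2 or 3. Apoa1 was not called without replicate 1, and Apob and Fabp1 were called without replicate 3. The near-identical major urinary proteins Mup3 (-1.24 ± 0.38) and Mup5 (-0.75 ± 0.34) were not called, and both were without replicate 3.

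**Figure D3:**
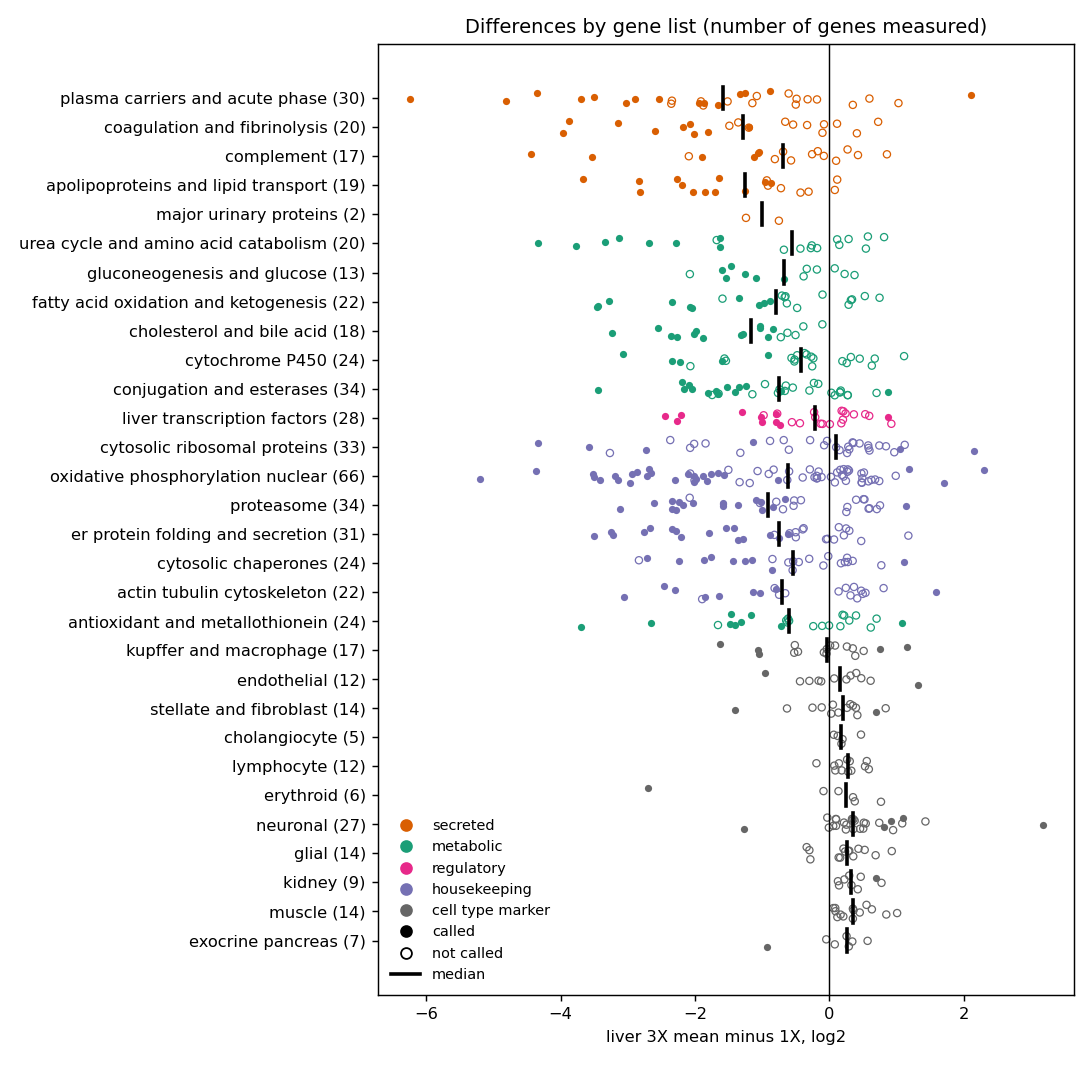
Each circle is a gene, placed by its liver difference (3X mean minus 1X, log2, x axis) in the row of its list, filled where called and open where not; the bar is the list's median and the number in brackets its measured genes. Medians of the secreted and metabolic lists lie between -1.59 and -0.42, and those of the marker lists of other cell types between -0.04 and 0.36.

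Metabolic enzymes spread widely within each pathway. In the urea cycle and amino acid catabolism, 8 of 20 fell, 0 rose by limma (2 at an unadjusted p under 0.05), and the median difference was -0.55. Tryptophan dioxygenase (Tdo2) read 10.64 at 1X and 6.77, 6.97 and 6.85 at 3X (-3.78 ± 0.15). Ahcy, which hydrolyses S-adenosylhomocysteine, fell by 4.34 ± 0.53 on the log2 scale. Ornithine transcarbamylase (Otc) of the urea cycle read 10.70 at 1X and 11.52, 11.001 and 12.03 at 3X (0.82 ± 0.39, not called), and all its replicates lay above 1X. Fah, the last enzyme of tyrosine breakdown, differed by -0.43 ± 0.35, not called. The falls were 4, 5 and 12 without replicate 1, 2 or 3. Ahcy was not called without replicate 1, and Fah was called without replicate 3.

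Genes of gluconeogenesis and glucose handling fell in 6 of 13 cases with a median of -0.68. Glucose-6-phosphatase (G6pc) fell by 1.09 ± 0.15, the pyruvate kinase Pklr by 1.26 ± 0.17 and Pck1, the key enzyme of glucose synthesis from oxaloacetate, by 1.60 ± 0.13, all on the log2 scale. Pck1 was dim, at 4.67 at 1X and 3.07 on average at 3X. Fbp1 (-0.34 ± 0.32) and the hormone Igf1 (-0.18 ± 0.38) were not called. Igf1 read 11.12 at 1X and 10.83, 10.49 and 11.47 at 3X, on both sides of the 1X value. Without replicate 1, 2 or 3 the falls were 4, 1 and 8. G6pc was lost without replicate 1 or 2, and Pklr without replicate 2.

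Fatty acid oxidation genes fell in 10 of 22 cases with a median of -0.79, and 0 rose by limma (1 at an unadjusted p under 0.05). Both subunits of the electron transfer flavoprotein, which takes electrons from acyl-CoA dehydrogenases, fell: Etfb from 10.22 at 1X to 6.70, 6.62 and 7.02 at 3X (-3.44 ± 0.20) and Etfa by 3.29 ± 0.38. The trifunctional protein subunit Hadhb fell by 3.46 ± 0.33, and Cpt1a, which admits long-chain fatty acids to mitochondria, by 2.04 ± 0.26. The dehydrogenase Acadm differed by -1.59 ± 0.54, not called. The falls were 6, 6 and 15 without replicate 1, 2 or 3. Cpt1a was lost without replicate 2, and Acadm was called without replicate 3.

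Cholesterol and bile acid synthesis fell in 13 of 18 cases, the highest share of any list with more than 10 genes when all replicates were used, with a median of -1.16 and 0 rises by limma, also at an unadjusted p under 0.05. Hmgcs1, at the start of cholesterol synthesis, fell by 3.24 ± 0.28 on the log2 scale. Further along the pathway, the isomerase Idi1 fell by 2.35 ± 0.31 and the farnesyl diphosphate synthase Fdps by 2.26 ± 0.24. Slc27a5, which activates bile acids, read 9.51 at 1X and 6.64, 7.03 and 7.19 at 3X (-2.55 ± 0.24). Without replicate 1, 2 or 3 the falls were 8, 7 and 15 (without replicate 3, apolipoproteins had the higher share), and Idi1 was lost without replicate 2.

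Drug-metabolizing cytochrome P450 genes fell in 5 of 24 cases with a median of -0.42. Cyp2f2 fell by 3.07 ± 0.21, while Cyp2c29 kept its signal, at 9.56 at 1X and 9.22, 9.30 and 9.36 at 3X (-0.27 ± 0.14, interval -0.62 to 0.09). Cyp3a11 (-2.07 ± 0.80), Cyp2b9 (-1.54 ± 0.90) and Cyp2c39 (-0.52 ± 0.21) were not called, and all were called without replicate 3. P450 subfamilies are near-identical in sequence, so their probe sets may share signal. The falls were 3, 3 and 11 without replicate 1, 2 or 3.

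Conjugating enzymes and esterases fell in 13 of 34 cases and 1 rose, with a median of -0.75. The glutathione transferases Gstp1 (-3.45 ± 0.42), Gstm3 (-1.66 ± 0.16) and Gstm1 (-1.40 ± 0.21) fell and Gsta1 rose (0.87 ± 0.16). Gsta1 was dim, at 3.09 at 1X and 3.96 on average at 3X. Alcohol dehydrogenase (Adh1) read 10.33 at 1X and 8.16, 7.95 and 8.72 at 3X (-2.05 ± 0.31). The aldehyde dehydrogenase Aldh1a1 differed by -1.15 ± 0.28, not called. The falls were 6, 8 and 20 without replicate 1, 2 or 3. Without replicate 1 neither Adh1, Gstm1 nor Gsta1 was called, without replicate 2 neither Adh1 nor Gsta1 was, and without replicate 3 Aldh1a1 was called as well.

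Liver transcription factors fell in 9 of 28 cases and 1 rose, with a median of -0.22. Cebpa, a driver of hepatocyte differentiation, read 9.40 at 1X and 7.35, 7.19 and 7.04 at 3X (-2.20 ± 0.17). Srebf1, the regulator of lipid synthesis, read 8.56 at 1X and 5.99, 6.16 and 6.18 at 3X (-2.45 ± 0.15). The pioneer factor Foxa1 kept its signal, at 7.47 at 1X and 7.22, 7.33 and 7.19 at 3X (-0.23 ± 0.14, interval -0.59 to 0.13). The xenobiotic receptor Nr1i3 differed by -0.78 ± 0.21, not called except without replicate 3. The retinoid receptor Rxrb was the rise (0.88 ± 0.13) and was lost without replicate 1 or 2. It was dim, at 1.74 at 1X and 2.62 on average at 3X. The falls were 5, 4 and 12 without replicate 1, 2 or 3.

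Genes active in every cell were among the falls. Over the housekeeping lists, 77 of 210 genes fell and 8 rose, with a median of -0.62, and 46, 47 and 118 fell without replicate 1, 2 or 3. Nuclear genes of oxidative phosphorylation fell in 24 of 66 cases and 3 rose (median -0.61). Within that list Atp5l and Ndufa3 (-2.94 ± 0.48) fell, Uqcrc2 of complex III rose by 2.30 ± 0.35, and Ndufa10 and Atp5a1 (-0.22 ± 0.36) were not called. Proteasome subunits fell in 17 of 34 cases and 1 rose (median -0.92), with Psma4 at -3.11 ± 0.19, Psmb3 at -2.24 ± 0.14 and Psmb1, the rise, at 1.14 ± 0.24. Another probe set of Psmb1 was called lower, at -1.63, so that gene did not rise as a whole. Genes of protein folding and export in the endoplasmic reticulum, through which plasma proteins pass, fell in 16 of 31 cases and 0 rose by limma (2 at an unadjusted p under 0.05; median -0.75). The chaperone Hsp90b1 read 10.33 at 1X and 6.85, 6.52 and 7.12 at 3X (-3.50 ± 0.25), Hspa5 fell by 3.22 ± 0.39 and the cargo receptor Lman1 by 2.68 ± 0.15. The falls without replicate 1, 2 or 3 were 16, 16 and 35 for oxidative phosphorylation, 8, 10 and 24 for the proteasome, and 11, 11 and 21 for folding and export.

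Cytosolic chaperones fell in 8 of 24 cases and 1 rose (median -0.54), among them Hspa8 at -2.72 ± 0.41, while Hspa4 kept its signal (-0.30 ± 0.19). The cytoskeletal list had 8 falls and 1 rise in 22 genes (median -0.70), with Actg1 at -3.06 ± 0.15 and Arpc2 at 1.59 ± 0.34. Antioxidant genes and metallothioneins, counted with the metabolic and not with the housekeeping lists, had 8 falls and 1 rise in 24 (median -0.61). The metallothionein Mt1, a binder of zinc and copper, read 10.99 at 1X and 7.28, 7.22 and 7.41 at 3X (-3.69 ± 0.15), whereas Mt2 differed by -0.11 ± 0.38 and was not called. With all replicates, cytosolic ribosomal protein genes had a median of 0.10, 4 falls and 2 rises in 33 genes, near the values over all genes (median 0.14, 10.9% and 4.59%). At an unadjusted limma p under 0.05, 8 were lower and 10 higher. Without replicate 3 the list had 14 falls (42.4%) and 10 rises (30.3%), against 17.4% and 15.1% over all genes. Rps4x fell by 4.33 ± 0.68 and Rpl39 kept its signal (0.35 ± 0.15), and many of these genes have near-identical processed pseudogenes that the array cannot separate. Falls without replicate 1, 2 or 3 were 4, 4 and 14 for chaperones, 5, 4 and 10 for the cytoskeleton, 4, 3 and 13 for antioxidant genes, and 2, 2 and 14 for ribosomal proteins. Of the genes named among the housekeeping and antioxidant lists, Rps4x, Ndufa3, Psmb1, Hspa8 and Arpc2 were lost without replicate 1 or 2, and Uqcrc2 and Hspa5 without replicate 1.

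Falls among markers of other liver cell types numbered 0 to 3 per list, and the lists were small. Against 10.9% of all genes, the share was 17.6% for Kupffer cell and macrophage markers and 16.7% for erythroid genes. It was 8.33% for endothelial, 7.14% for stellate, and 0% for cholangiocyte and lymphocyte markers. Kupffer cell and macrophage markers had 3 falls and 2 rises in 17 genes, with Cd5l at -1.63 ± 0.14 and Laptm5 at 1.16 ± 0.25. Endothelial and stellate cell markers had 1 fall and 1 rise each, in 12 and 14 genes, with Cdh5 at -0.95 ± 0.17 and Reln at -1.41 ± 0.23 as the falls. Alpha-globin (Hba-a1) read 6.82 at 1X and 4.16, 3.91 and 4.27 at 3X (-2.70 ± 0.19), the 1 fall among 6 erythroid genes. None of the 5 cholangiocyte or 12 lymphocyte markers was called by limma, and 1 and 3 were higher at an unadjusted p under 0.05. Most of these markers were dim at 1X, with medians from 2.57 for cholangiocytes to 5.86 for erythroid genes. The called markers Laptm5 and Cdh5 were lost without replicate 1 or 2, and Reln without replicate 2.

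Markers of tissues that a liver sample should lack sat slightly higher at 3X. Of 27 neuronal markers, 4 rose (Snap25, Eno2, Map2 and Nrgn), 1 fell (Tubb3, -1.27 ± 0.15) and the median was 0.36. Another probe set of Tubb3 was called higher, at 1.21, so that gene did not fall as a whole. The mean level of the list was 4.12 on the 1X array and 4.67, 4.72 and 4.50 on the 3X replicates. Kidney markers had 1 rise in 9, that of Aqp2 (0.70 ± 0.15), which was dim, at 2.71 at 1X and 3.41 on average at 3X. Their median was 0.33, with list means of 3.15 at 1X and 3.49 to 3.56 at 3X. Glial markers (14 genes, median 0.26) and muscle markers (14 genes, median 0.35) had no limma call, and 3 and 4 were higher at an unadjusted p under 0.05. Among 7 pancreatic genes Cela1 fell (-0.93 ± 0.13). Over all genes the mean level was 4.30 at 1X and 4.24 to 4.26 at 3X, but the median difference was also above 0, at 0.14. For dim probe sets, with a mean of 2 to 4 over the 4 liver arrays, the median difference was 0.15. No neuronal rise remained without replicate 1 or without replicate 2, and 9 were called without replicate 3. Aqp2 and Cela1 were also lost without replicate 1 or 2. The share of these levels in the rises above was not tested, and the method returns no true zero for an absent marker.

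Probe sets of the same gene sometimes disagreed, so a gene could not always be said to have lost or kept its signal as a whole. Of 2073 genes with several probe sets, 604 had a call, 23 had all their probe sets lower, 6 all higher, and 32 had calls in both directions (5.30% of those with a call). Among 191 genes with several bright probe sets, 48 had all kept, 11 had all lost, and 19 had one kept and one lost. The ribosomal protein Rps28 had the widest gap: 100758_at read 10.02 at 1X and 6.13, 6.39 and 7.15 at 3X (-3.46 ± 0.40), while 98085_f_at read 7.54 at 1X and 9.76, 9.48 and 9.82 at 3X (2.15 ± 0.18). Catalase (Cat), which breaks down hydrogen peroxide, differed by -2.53 ± 0.53 in one probe set and by 1.08 ± 0.22 in another. The collagen Col18a1 had 5 probe sets, between -2.33 ± 0.15 and 1.37 ± 0.26. Among genes whose opposed probe sets were both bright at 1X or 3X, such calls also occurred in the growth factor-binding protein Igfbp4 (-2.52 ± 0.27 and 0.73 ± 0.17), the Mediator subunit Med22 (-2.03 ± 0.29 and 0.94 ± 0.19) and S100a10 of the S100 family (-1.90 ± 0.38 and 0.82 ± 0.15). Without replicate 1 or without replicate 2 only Rps28 among these 6 genes kept calls in both directions, and without replicate 3 all 6 did.

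Some probe set names carry a suffix, given to probes that match more than one transcript or match less specifically, and these showed another balance. Of 2808 with a suffix, 9.65% rose and 6.09% fell, whereas of the 9614 without, 3.80% rose and 10.9% fell. The median difference was 0.22 with a suffix and 0.13 without. Without replicate 3 the suffixed sets again had more rises (23.6%) than falls (10.1%). Without replicate 1 or 2 they did not: 1.92% and 2.35% rose while 2.99% and 2.85% fell, against 0.177% and 0.291% rising without a suffix.

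Control probe sets of the manufacturer, which were kept out of the tests, also differed. All 6 sense control sets of beta-actin (Actb) and Gapdh, both expressed in every cell, were lower in all 3X replicates than at 1X, by -4.76 to -1.71. Actb read 7.81 at 1X and 6.34, 5.61 and 6.33 at 3X at its 3' end (-1.71), and 8.32 at 1X and 4.94, 4.72 and 4.79 at 3X at its 5' end (-3.51). Gapdh read 6.61 at 1X and 4.06, 3.79 and 3.84 at 3X at its 3' end (-2.71), and 9.54 at 1X and 5.41, 5.45 and 5.12 at 3X at its 5' end (-4.21). The set in the middle had the lowest difference in both, -4.76 for Actb and -4.65 for Gapdh, and the 3' set the one nearest to 0. Pyruvate carboxylase, an enzyme of gluconeogenesis with control sets of its own, ran the other way. Its 5' set read 9.15 at 1X and 8.88, 8.38 and 8.60 at 3X (-0.53), its 3' set read 7.003 at 1X and 5.45, 5.28 and 5.65 at 3X (-1.55), and both middle sets were also lower (-1.01 and -2.28). The corresponding 6 antisense sets were higher in all replicates, by 0.52 to 2.32. The 9 sense sets of the bacterial hybridization controls were higher by 1.12 to 2.78.

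The 18S ribosomal RNA sets had the highest differences of all. At its 3' end the 18S signal was 5.13 at 1X and 13.13, 12.07 and 12.76 at 3X (7.53). In the middle it was 3.82 at 1X and 13.66, 12.79 and 13.32 at 3X (9.44), and at the 5' end -4.62 at 1X and 4.84, 3.83 and 4.27 at 3X (8.93). The largest rise among the tested probe sets was 3.18. How far the ribosomal RNA signal bears on the transcript signals was not tested.

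**Figure D4:**
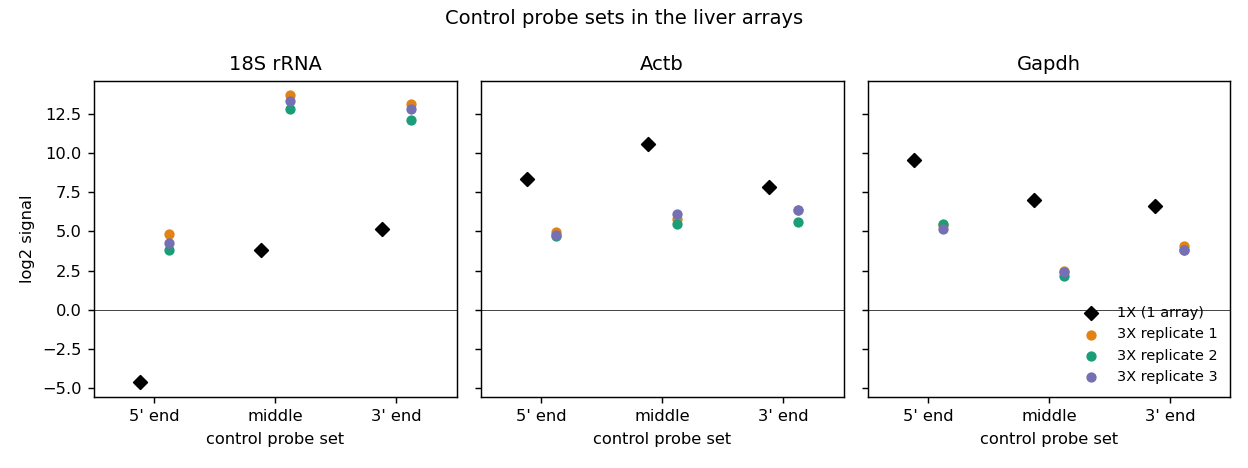
The log2 signal (y axis) of the control probe sets for 18S ribosomal RNA, Actb and Gapdh at the 5' end, the middle and the 3' end is shown for the 1X liver array (diamond) and the 3X replicates (circles). The 18S differences are 7.53 to 9.44, while those of the Actb and Gapdh sets are -4.76 to -1.71.

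The last question was which changes were particular to liver. The liver difference was therefore set against the mean of the cortex and cerebellum differences in a limma fit of all 12 arrays, with the spread of the 9 3X arrays. Of 12422 probe sets, 1645 were called (13.2%), 854 with a higher difference in liver (6.87%) and 791 with a lower one (6.37%). Of 1219 probe sets called lower in liver, 454 also had a mean brain difference below -1. The share of all probe sets with such a brain difference was not counted. Among probe sets bright at 1X in all 3 tissues, 244 of 417 called lower in liver had it. Among those bright at 1X only in liver, 19 of 254 did. Across the 2522 probe sets bright on the 1X arrays of all 3 tissues, the liver and brain differences correlated with Pearson's r of 0.75 and Spearman's rho of 0.72. They share no array, but they share the animal, the probes and the normalization, and no p is given. Over all probe sets r was 0.59. In those 2522, 177 had a called lower difference in liver (7.02%) and 187 a higher one (7.41%).

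The calls were split by where a transcript was bright. Of 476 probe sets bright at 1X only in liver, 291 had a lower difference in liver (61.1%), with medians of -1.41 in liver and 0.19 in brain. Of 415 bright only in brain, 227 had a higher difference in liver (54.7%) and 2 a lower one. A probe set that is dim at 1X in a tissue has little signal to lose there, so the split itself favours these calls. They cannot tell a loss particular to a tissue from expression mainly in that tissue, and the part of brightness was not tested. The lowest liver differences relative to brain were those of Hamp (-6.43 ± 0.19), Cyp2d10 (-5.53 ± 0.32), Plg (-5.16 ± 0.36), Apoa5 (-5.15 ± 0.32), Orm1 (-4.86 ± 0.18) and C4bp (-4.72 ± 0.61). Hamp, for example, read 2.30 in cortex and 2.12 in cerebellum at 1X and differed there by 0.13 and 0.23. It thus had little signal to lose in brain.

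The highest liver differences relative to brain belonged to neuronal genes. Snap25 stood at 6.95 ± 0.63: it read 11.24 in cortex and 11.43 in cerebellum at 1X, differed there by -3.67 and -3.88, and rose in liver. Vsnl1, a neuronal calcium sensor, stood at 4.58 ± 0.24. It read 6.47 at 1X in liver and 6.50, 6.55 and 6.65 at 3X, with brain differences of -4.31 and -4.65. The neuronal ubiquitin hydrolase Uchl1 (3.99 ± 0.17) and Ndrg4 (4.02 ± 0.27) likewise had brain differences between -3.71 and -3.36 and kept their signal in liver. Pcsk1n, an inhibitor of prohormone processing, and the imprinted gene Nnat (3.77 ± 0.23 and 3.72 ± 0.28) had brain differences between -2.38 and -1.61 and rose in liver (1.44 ± 0.19 and 1.93 ± 0.28). Adjusted p-values of these 12 genes in limma were 0.000427 or lower.

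Some of the largest liver changes were not particular to liver. Atp5l differed by -5.60 in cortex and -5.57 in cerebellum, and its liver difference exceeded the brain mean by 0.39 ± 0.16 (limma adjusted p = 0.183). Of the 12 largest rises, 11 had the same sign in both brain regions, and only Snap25 and Faap20 were called between liver and brain. The share of all probe sets with that sign was not counted. Their median difference was above 0 in liver (0.15) and in brain (0.13), so a shared sign alone says little. Among the 12 largest falls 11 were called between liver and brain, Atp5l being the exception. These genes were chosen by the liver difference that enters this contrast, so the choice itself favours such calls. Of the 12, 5 had a difference below 0 in cortex and 6 in cerebellum as well. Dbi, for example, differed by -2.77 in cortex and -3.90 in cerebellum, and its liver difference was lower than the brain mean by 2.13 ± 0.28 on the log2 scale. Of the 268 genes of liver function, antioxidant genes and metallothioneins included, 139 had a called lower difference in liver and 2 a higher one. Of the 210 housekeeping genes, 20 and 8 did. Over all 8251 genes these were 590 (7.15%) and 621 (7.53%). Genes of liver function that were dim in brain, such as Hamp and Alb, had little signal to lose there. The counts per list therefore cannot tell a loss particular to liver from expression mainly in liver, and the part of brightness in them was not tested.

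**Figure D5:**
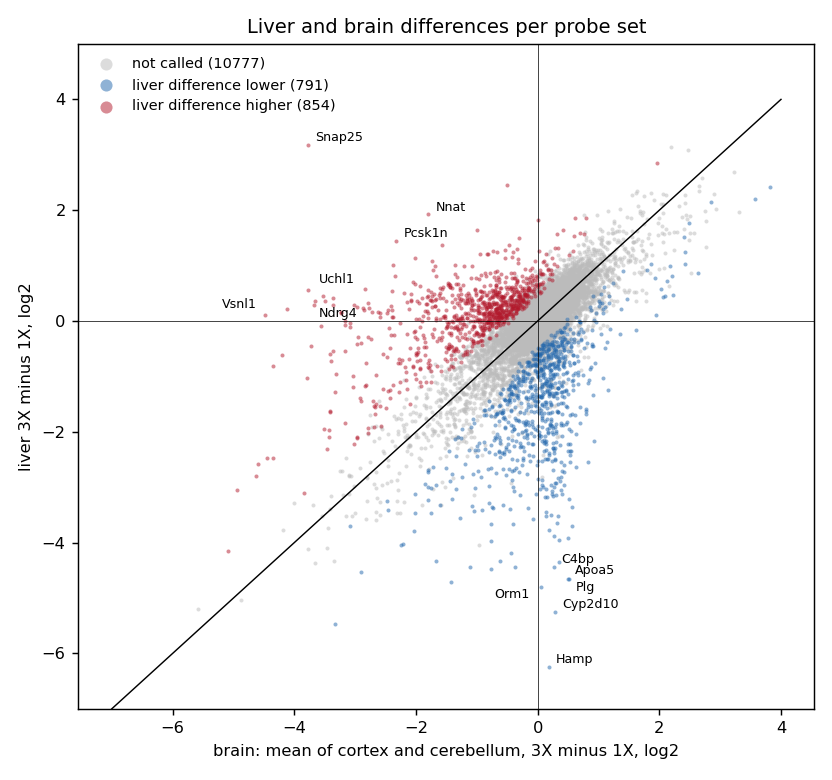
Each point is 1 of 12422 probe sets, with the mean of its cortex and cerebellum differences (3X minus 1X, log2) on the x axis and its liver difference on the y axis; the diagonal is equality. The 791 with a lower liver difference (blue) include Hamp, Cyp2d10 and Orm1 near 0 in brain, and the 854 with a higher one (red) include Snap25 and Vsnl1, far below 0 in brain.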

How the data were processed

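The authors deposited log2 signals per probe set for 12 arrays, made with RMA per the submitters' processing notes. This method corrects the background, brings arrays to a common distribution and summarises the perfect-match probes. Its version, the log base and any joint processing of the 12 arrays were not given in the sources used here. Base 2 was inferred from the highest value, 14.5. In liver, 14 values were below 0. Arrays have no depth, and precision is limited by their number.

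From these values, R 4.3.3 with limma 3.58.1 (lmFit, contrasts.fit, eBayes, two-sided) fitted the 4 liver arrays, with 2 residual degrees of freedom from the 3X replicates and a prior worth 3.31, and adjusted p-values over 12422 probe sets. The comparison with brain used 6 group means over 12 arrays. Gene symbols came from the platform annotation: 10833 probe sets had 1 symbol, 396 several and 1193 none, and genes were named only from the first kind. RefSeq (GRCm38.p6) was used for names only: it held 10817 of them and changed 0. The symbols stood for 8251 genes.

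The members and the gene lists, written from textbook knowledge, were chosen with earlier results of these data known. Named were the 12 largest falls and 12 largest rises that were called, had the 1X value outside the 3X range and were bright on the higher side. To these were added the 12 brightest kept genes, the 6 largest liver-minus-brain differences each way, per list the 4 brightest members with the largest called fall and rise, and the 6 widest gaps between opposed probe sets that were both bright at 1X or 3X. Alb, Eno2, Map2 and Nrgn were named after their values were seen. Alternatives were quantile normalization, median centring, filters on dim or suffixed probe sets, gene means, eBayes with trend and robust settings, the spread of all arrays, a replicate block and leaving out each 3X array. The fits were tested on simulated data. No sequence is printed, since probe and transcript sequences were not used here.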

Additional observations from a re-analysis of the deposited data

Results flagged for a closer look

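The liver difference departed from the mean brain difference in 1645 probe sets (limma, adjusted p under 0.05). The genes with the largest departures among those above the 75th percentile of the liver 1X array or of the liver 3X mean were, on the higher side, Snap25 (6.95), Vsnl1 (4.58), Ndrg4 (4.02), Uchl1 (3.99), Pcsk1n (3.77) and Nnat (3.72). On the lower side they were Hamp (-6.43), Cyp2d10 (-5.53), Plg (-5.16), Apoa5 (-5.15), Orm1 (-4.86) and C4bp (-4.72). In control probe sets outside the tested ones, 18S ribosomal RNA was higher at 3X by 7.53 at the 3' end, 8.93 at the 5' end and 9.44 in the middle, in all 3 replicates.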

How the results depend on the processing

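In all alternatives run, lower calls of at least 2-fold outnumbered higher ones. Against 1855 liver calls, there were 1134 above the median level, 4410 with the spread of all 12 arrays (1947 lower, 2463 higher) and 642 to 3955 on leaving out a liver 3X replicate. With a replicate block the liver calls numbered 4676 (2054 lower, 2622 higher) and the calls between liver and brain 1770. Same-numbered 3X arrays of different tissues had correlated deviations of -0.0991 to 0.342 in 9 pairs, against -0.359 to 0.248 in 18 pairs of different number. The 3 pairs of replicate 3 (0.294 to 0.342) lay above all of the latter, but those of replicates 1 and 2 did not all exceed 0.1, so the numbers were not taken to pair the samples. Against 1157 calls of at least 2-fold, gene means gave 693 and leaving out a replicate 642 to 1554. Against 435 lost, gene means gave 274, and brightness by the 3X mean or by the 4-array mean, both chosen after seeing the data, gave 173 and 234. The kept count stayed within 1.5 times of 1660 throughout. Against 1645 calls between liver and brain, there were 1002 above the median level, 364 among probe sets bright in all 3 tissues (chosen after seeing the data) and 1469 to 2310 on leaving out an array. Gene means reversed the sign for Rps28 (-0.25), Cat (-0.73), Bgn (-0.082), Col18a1 (-0.73), Igfbp4 (-0.55), Med22 (-0.55) and S100a10 (-0.54), by construction, since opposed probe sets were averaged. For the other changes the cause was not tested. A planned description by protein length was not run, since no protein table was used. Dim signals limit what can be seen as lost, and 1 array at 1X limits every difference.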
